A study of Mus musculus with 12 samples.

Results

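Growth hormone (GH) was given or withheld in wild-type (WT) mice and in mice lacking Stat5a and Stat5b (KO), and the question taken up here is which genes of skeletal muscle answered GH differently when STAT5 was missing. All 12 of the 12 samples entered, placed in 4 groups by source name with 3 arrays each: WT without GH, WT with GH, KO without GH and KO with GH. For every gene the GH effect in WT was subtracted from the GH effect in KO on the log2 scale, so a positive difference means a larger rise or a smaller fall with GH in KO. Of 12654 genes tested, 118 (0.933%) had a difference past the threshold of a Benjamini-Hochberg adjusted p of 0.05 in limma. These 118 genes are the members described below, 79 with a positive difference (0.624% of genes tested) and 39 with a negative one (0.308%).

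The series title concerns skeletal muscle growth and fibre type, while the treatment text places the loss of both Stat5 genes in blood cells. Neither names the muscle taken, the Cre driver, the strain, the age or the sex of the mice, nor the dose of GH or the time from treatment to sampling. The titles of all samples with GH begin with M and those of all samples without GH do not, a form the labels do not explain. Each sample title carries a number of its own. The arrays were therefore read as separate mice, and where that does not hold the p-values measure only the spread between samples. Each value is an average over a piece of tissue, in which fewer cells of a type and less RNA per cell cannot be told apart.

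GH binds a receptor without kinase activity of its own, and the associated kinase JAK2 phosphorylates STAT5A and STAT5B, which enter the nucleus and switch on genes such as Igf1, Cish and Socs2. The same receptor also activates STAT3 and the MAP kinases ERK1 and ERK2. ERK signalling induces immediate early genes such as Egr1 within minutes, and their products include phosphatases and co-repressors that shut the signal down. In muscle, GH and STAT5 are known for their part in postnatal growth, local IGF1 and the lipid content of fibres.

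Promoter sequence is shown for 3 of the 8 genes with the largest difference in the class that rose with GH in KO alone, because each holds 1 of the motifs that the pathways above are known to use. The sequences are the RefSeq reference of build GRCm38.p6, 5′ to 3′ on the strand of the gene, and each ends before the transcription start, with the motif in capitals. In Dusp5 a pair of adjoining CArG boxes, the serum response element, begins 82 and 72 bases before the start at chr19:53529025-53529144 on the plus strand. In Sgms2 the capitals mark a STAT5 site (TTCNNNGAA) that begins 72 bases before the start at chr3:131489043-131489162 on the minus strand. In Dusp2 they mark an EGR site (GCGGGGGCG) that begins 98 bases before the start at chr2:127336039-127336158 on the plus strand.
Dusp5: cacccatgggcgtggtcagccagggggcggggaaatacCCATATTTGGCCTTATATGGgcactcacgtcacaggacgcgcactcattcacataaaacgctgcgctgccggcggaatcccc
Sgms2: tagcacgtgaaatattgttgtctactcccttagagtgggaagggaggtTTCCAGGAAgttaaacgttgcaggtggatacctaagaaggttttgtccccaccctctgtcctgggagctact
Dusp2: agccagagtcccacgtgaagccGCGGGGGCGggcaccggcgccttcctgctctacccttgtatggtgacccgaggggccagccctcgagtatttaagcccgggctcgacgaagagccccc
Over the 30 genes of the class with a promoter window of 300 bases (250 before and 50 after the start) in the table used, searched on both strands, a CArG box was present in 1 (3.33%), a STAT5 site in 2 (6.67%) and an EGR site in 2 (6.67%). Over the 10197 tested genes with a window the shares were 1.63%, 8.19% and 6.29%, so the class lay close to the background for each motif. The CArG boxes of Dusp5 adjoin without overlap and no printed match overlaps another motif. A match is a run of letters, not a measured site. Among the STAT5 target genes listed for this report a STAT5 site was present in 3 of 13 genes with a window (23.1%), in Cish, Bcl6 and Igfals. A gene counted when any of its windows held the motif. Genes had 1.7 windows on average in the class, 1.69 among the STAT5 targets and 1.28 over the genes tested, so the lengths searched were unequal.

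The targeted genes were read first. Stat5b had signals of 2955, 2639.8 and 2866 in WT, 1694, 1792 and 1896 in WT with GH, 497, 372 and 415 in KO and 333, 378 and 374 in KO with GH, so that the KO mean was 15.2% of WT without GH and 20.2% with it. Stat5a was at 40.6% and 40.2% of WT. For neither gene did any KO array overlap a WT array under the same treatment, and neither had a difference in its GH effect past the threshold (Stat5a 0.06 ± 0.29, adjusted p = 0.966, and Stat5b 0.42 ± 0.15, adjusted p = 0.306, limma).

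Skeletal muscle markers were the brightest of the marker lists, with a median at percentile 100 of the 18193 genes with a probe set. None of the 13 had a difference past the threshold in limma or an unadjusted p under 0.05 (0 of 13). Their median difference was -0.19 with 1 of 13 above 0. GH lowered 9 of them and raised 1 in KO and called none (0) in WT, and their summed signal was 499169 to 524011 in KO with GH, 581166 to 764395 in KO, 505188 to 707848 in WT with GH and 657497 to 664917 in WT. Their part in the members' differences was not tested. The arrays with GH had a higher beta-actin 3 prime over 5 prime ratio (0.887 to 1.01) than those without (0.805 to 0.864), and their spiked poly-A controls were 3.17-fold brighter (exact permutation test, 2-sided, p = 0.002165, n = 6 and 6, both). The labels name no batch, and GH, the difference in these controls and the form of the sample titles cannot be told apart in either genotype. The 3 arrays of KO with GH had the highest actin ratios of all, at 0.962 to 1.01, while WT with GH reached at most 0.932 (2-sided exact permutation test, p = 0.1, and 3 against 3 arrays allow none smaller). With that ratio as a covariate 50 of the 118 members kept their call, 24 of the 38 that rose in KO alone, 3 of the 20 that rose in WT alone and 7 of the 18 that moved in opposite directions. The 3 arrays of KO with GH also varied least, with a median SD across genes of 0.0997 on the log2 scale against 0.135 in WT with GH, 0.166 in KO and 0.177 in WT.

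Many genes differed between arrays with and without GH in both genotypes, a contrast that GH shares with the controls and the sample titles above. In WT, 927 genes rose (7.33% of those tested) and 1489 fell (11.8%); in KO, 1130 rose (8.93%) and 1948 fell (15.4%). This split moved with the scaling of the arrays: with each array centred on the median of all probe sets it was 490 up and 3939 down in WT and 643 up and 4195 down in KO, and with centring on the genes kept it was 1113 and 1097 in WT and 1359 and 1362 in KO. The median GH effect over all genes was -0.055 in WT and -0.065 in KO as reported and -0.24 and -0.245 with the first centring. The median of the difference between genotypes was -0.01 under each of these scalings. Across all genes tested the GH effects in WT and KO, which share no arrays, had a Pearson correlation of 0.648, a description over genes that are not independent.

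**Figure D1:**
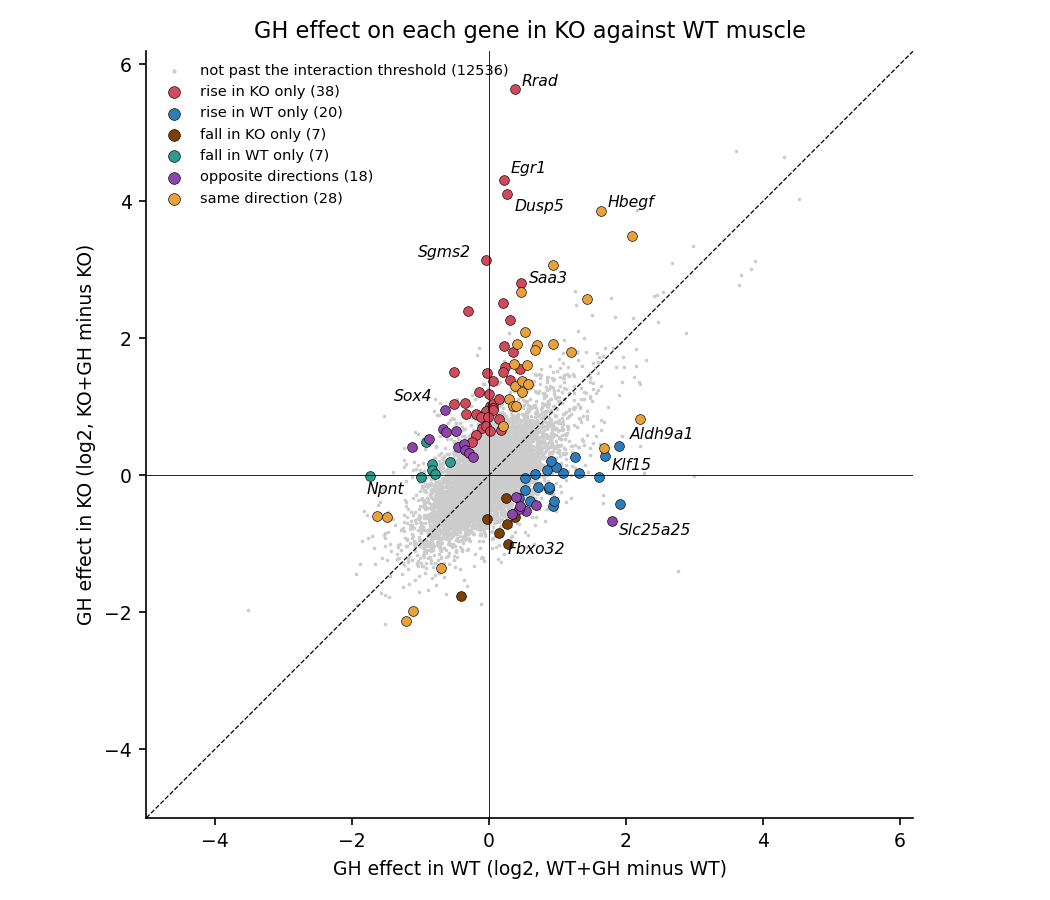
GH effect in WT (x axis) against GH effect in KO (y axis), each a log2 difference between 3 arrays with and 3 without GH, for the 12654 genes tested. Grey points are genes whose effects did not differ past the threshold, and coloured points are the 118 members by class; genes that rose in KO alone climb along the vertical axis near 0 on x, led by Rrad at 0.38 and 5.63.

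For most genes called in 1 genotype and not in the other, the difference between genotypes did not itself pass the threshold. Of 572 genes called up in KO without a call in WT, 38 (6.64%) had a difference past the threshold, and of 372 called up in WT without a call in KO, 20 (5.38%). The shares were lower for genes that fell: 7 of 1004 (0.697%) for a fall in KO without a call in WT and 7 of 542 (1.29%) for the reverse. Of the 547 genes up in both genotypes 23 differed in size, and of the 936 down in both, 5. All 11 genes that fell in WT and rose in KO were members, as were 7 of the 8 that rose in WT and fell in KO. In such genes the difference adds the sizes of both called effects from the same fit. Passing was therefore close to fixed in advance, and these counts support nothing. No gene without a call in either genotype was a member.

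The counts moved with single arrays. Leaving out 1 array at a time gave 59 to 90 positive and 17 to 53 negative members; the negative count fell to 17, 20 and 20 without KO with GH replicate 1, 2 or 3 and to 21, 22 and 24 without WT with GH replicate 1, 2 or 3. No member changed sign without any 1 array, and 71 of 118 kept their call without each of them. The smallest difference among the members was 0.49 on the log2 scale, while the median size over all genes was 0.175 with a median standard error of 0.203. Just inside the threshold were Noct, Gm17753 and Myct1 at an adjusted p of 0.0481 (limma), and just outside were Wdfy2 at 0.0518 and Dis3l at 0.0526.

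The largest class held 38 genes that rose with GH in KO and had no call in WT. Their median GH effect was 1.15 in KO and 0.04 in WT on the log2 scale. For 37 of the 38 the 3 arrays of KO with GH lay above the other 9, Socs2 being the exception. Members were chosen by a test on these same arrays, and the same share over all genes tested was not computed. Counts of arrays lying apart, here and in the other classes, therefore describe the members and support nothing further. For 33 of them KO and WT differed with GH and not without it, where 4.53% and 1.45% of genes tested were called. Without 1 array the class held 31 to 47 genes, and 28 of the 38 stayed past the threshold whichever array was left out. No call means an adjusted p that missed 0.05. With an unadjusted p of at least 0.05 required in WT (limma) the class held 31 genes. With median centring 32 of the 38 kept the difference past the threshold and 24 kept the class.

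Rrad led the class. It encodes a small GTPase of the RGK family that inhibits voltage-gated calcium channels, and its signals were 142, 89.0 and 102 in WT, 184, 101 and 178 in WT with GH, 45.5, 136 and 116 in KO and 5850.2, 5916 and 5614 in KO with GH. The 3 arrays of KO with GH stood far above the other 9, which overlapped one another. GH raised it 49.7-fold in KO, and the difference between genotypes was 5.25 ± 0.38 on the log2 scale (adjusted p = 4.24e-06, limma).

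Egr1, the immediate early zinc finger factor, had signals of 1057, 673 and 715 in WT, 853, 971 and 978 in WT with GH, 530.2, 509.5 and 449 in KO and 10488, 9689 and 10808 in KO with GH. Again only KO with GH was apart on the high side, while KO without GH lay below WT. The rise in KO was 19.9-fold and the difference 4.10 ± 0.19 (adjusted p = 1.77e-08, limma). Nab2, a co-repressor that binds EGR proteins, had signals of 385, 316 and 293 in WT, 224, 259 and 304 in WT with GH, 386, 279.9 and 423 in KO and 2019, 2053 and 1918 in KO with GH, with every array of KO with GH above the rest and the other 3 groups overlapping. Its difference was 2.71 ± 0.21 (adjusted p = 6.83e-06, limma). In WT with GH it was not above WT, with a GH effect of -0.31 ± 0.15. With median centring that effect was -0.495 (adjusted p = 0.0144, limma), which put Nab2 among the genes that moved in opposite directions.

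Both phosphatases whose promoters are printed above turn off MAP kinases. Dusp5, a nuclear phosphatase of ERK, had signals of 13.5, 17.1 and 10.1 in WT, 17.1, 19.7 and 28.1 in WT with GH, 12, 11.3 and 16.1 in KO and 543, 613 and 765 in KO with GH, so it was low everywhere except in KO with GH, and only those 3 arrays brought its mean above the filter on low values. Its difference was 3.84 ± 0.35 (adjusted p = 1.78e-05, limma), which is an understated fold since 25 was added to each signal before taking logs. Dusp2 had signals of 236, 150.3 and 100 in WT, 166, 222 and 163 in WT with GH, 136, 127 and 123 in KO and 912, 857 and 811 in KO with GH, and the arrays of KO with GH again shared no value with the rest (2.31 ± 0.30, adjusted p = 0.000847, limma). Sgms2, which makes sphingomyelin at the plasma membrane, had signals of 47, 43.3 and 69.3 in WT, 63.4, 41.4 and 47.7 in WT with GH, 58.8, 54.3 and 47.7 in KO and 647, 685 and 667 in KO with GH and showed the same separation (3.18 ± 0.28, adjusted p = 1.57e-05, limma).

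Saa3, an acute-phase serum amyloid, had signals of 179.9, 206 and 135 in WT, 383, 172 and 225 in WT with GH, 81.6, 98.5 and 83.6 in KO and 681, 822 and 802 in KO with GH. Its lowest group was KO without GH and its highest KO with GH, and neither overlapped a WT group. The difference was 2.34 ± 0.31 (adjusted p = 0.00115, limma). The eighth gene by size, 2900079G21Rik, differed by 2.02 ± 0.35. The other 30 genes of the class differed by 0.49 to 1.95. Among them was Azin1, which spares ornithine decarboxylase from breakdown and so favours polyamine synthesis, at 1.09 ± 0.16, with signals of 1256, 1351 and 1092 in KO and 2348, 2286 and 2292 in KO with GH. Klf6, a zinc finger factor of the immediate early list, was at 0.96 ± 0.15. Both kept their call without any 1 array.

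Socs2 encodes a feedback inhibitor of the GH receptor and is a known STAT5 target. Its signals were 1240.2, 1776 and 2156 in WT, 2211, 2316 and 2419 in WT with GH, 396, 290.4 and 297 in KO and 1022, 966 and 1024 in KO with GH. KO with GH was above KO in every array yet below every WT array, so that KO minus WT was -2.29 on the log2 scale without GH and -1.19 with it. The GH effect was 0.46 ± 0.16 in WT, where it missed the threshold (adjusted p = 0.058, limma), and 1.56 ± 0.16 in KO. The difference of 1.10 ± 0.22 (adjusted p = 0.0269, limma) stayed past the threshold without KO replicate 1 or WT replicate 1 or 3 and missed it without any of the other 9 arrays, with an adjusted p of up to 0.0891. The other 5 probe sets of Socs2 gave differences of -0.15 to 1.07.

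**Figure D2:**
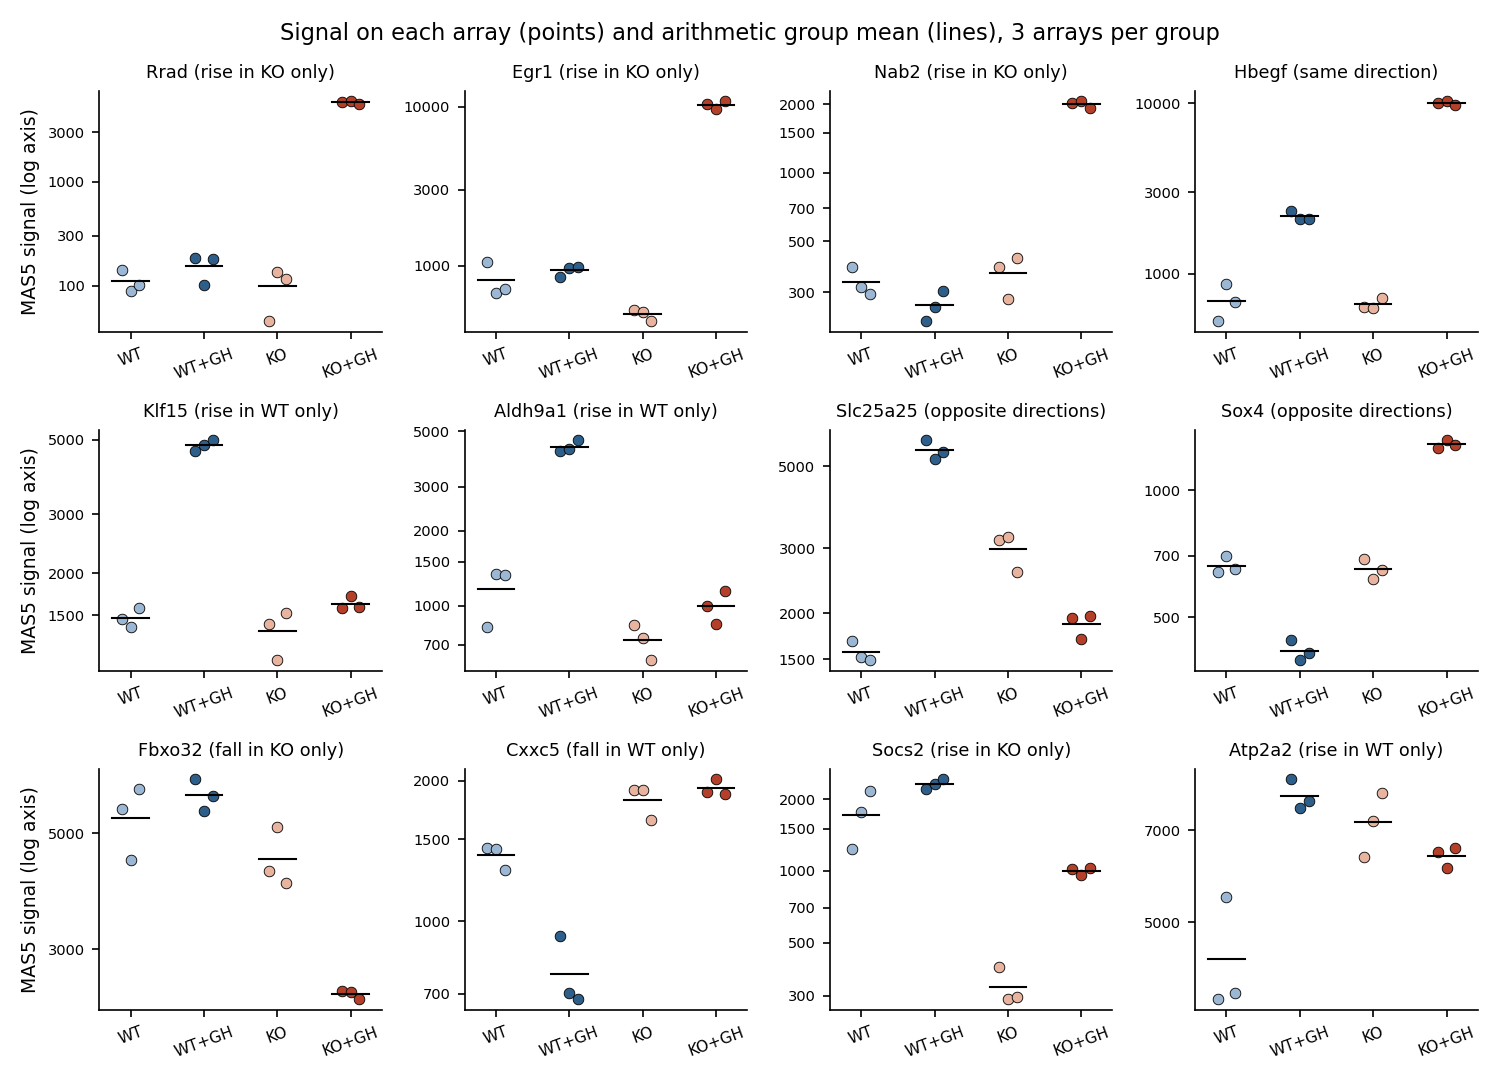
MAS5 signal (log axis) of 12 members on each of the 12 arrays, grouped as WT, WT with GH, KO and KO with GH; points are arrays and the short line is the arithmetic mean of 3. Rrad, Egr1, Nab2 and Hbegf are highest in KO with GH, Klf15 and Aldh9a1 in WT with GH, and Slc25a25 and Sox4 move in opposite directions in the 2 genotypes.

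A second class of 20 genes rose with GH in WT and had no call in KO. Their median GH effect was 0.92 in WT and -0.03 in KO, and for 15 the arrays of WT with GH lay above the other 9. In Lrtm1, Atp2a2, Cldn5, Dnaja4 and St8sia5 they overlapped other arrays. The class held 12 to 25 genes when 1 array was left out: 13 and 12 without WT with GH replicate 1 or 2, and 12, 12 and 13 without KO with GH replicate 1, 2 or 3. Of the 20 genes, 10 stayed past the threshold without any 1 array. With an unadjusted p of at least 0.05 required in KO (limma) the class held 15 genes. With median centring 15 of the 20 kept the difference past the threshold and 10 kept the class.

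Klf15, a glucocorticoid-induced factor that controls amino acid and lipid use in muscle, was the clearest. Its signals were 1458, 1381 and 1578 in WT, 4643, 4830.0 and 4979 in WT with GH, 1413, 1101 and 1526 in KO and 1580.3, 1708 and 1582 in KO with GH. GH raised it 3.24-fold in WT, with all arrays of WT with GH above the other 9, while the lowest array of KO with GH was just above the highest of KO. The difference was -1.42 ± 0.15 (adjusted p = 9.23e-05, limma).

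Aldh9a1, an aldehyde dehydrogenase of carnitine synthesis, had signals of 827, 1341 and 1332 in WT, 4193, 4237 and 4602 in WT with GH, 841, 747 and 607 in KO and 998, 844 and 1152 in KO with GH. Every array of WT with GH was above all the others, which ended at 1341, and the difference was -1.47 ± 0.24 (adjusted p = 0.00546, limma). Frat2, a GSK3-binding protein, had signals of 676, 670.2 and 814 in WT, 1897, 1789 and 1809 in WT with GH, 624, 561 and 742 in KO and 687, 574 and 712 in KO with GH, with WT with GH alone apart (-1.29 ± 0.17, adjusted p = 0.000901, limma). Apold1, an early response gene of endothelium, had signals of 282, 159 and 151 in WT, 622, 672 and 601 in WT with GH, 243, 202 and 405 in KO and 256, 251 and 293 in KO with GH; its difference of -1.64 ± 0.32 (adjusted p = 0.0219, limma) missed the threshold without WT replicate 2 or 3, without WT with GH replicate 1 or 2, or without KO with GH replicate 1 or 2.

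The largest negative difference of the class belonged to Krt88, a keratin, at -2.33 ± 0.47 (adjusted p = 0.0233, limma). Its signals were low: 53.2, 17.8 and 22.4 in WT, 179, 207 and 153 in WT with GH, 95.1, 142 and 109.6 in KO and 37.5, 81.8 and 143 in KO with GH. KO without GH was already above WT without GH, and the call was lost without any of 7 arrays, being kept without KO replicate 1 or 3, KO with GH replicate 3, WT replicate 1 or WT with GH replicate 3. B330016D10Rik differed by -1.39 ± 0.23 and Lrtm1 by -1.08 ± 0.18, both without dependence on 1 array. Ciart, a repressor of the circadian clock, differed by -1.33 ± 0.29 and kept its call only without KO replicate 1 or WT replicate 1 or 3. The other 12 genes differed by -1.05 to -0.57. Among them was Atp2a2, the calcium pump SERCA2 of slow muscle.

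A set of 18 genes moved in opposite directions, each past the threshold in both genotypes: 7 rose in WT and fell in KO, and 11 fell in WT and rose in KO. Their sign in each genotype was the same with median centring, with centring on the genes kept and with quantile normalization. With median centring, which lowers the median GH effect, 14 kept a difference past the threshold and 7 kept a call in both directions: Slc25a25, Sox4, Macir, Tgif1, Ptx3, Sh3rf2 and Cavin1. With the actin ratio as a covariate 7 of the 18 kept the difference and the class held 0 genes. That ratio did not overlap between arrays with and without GH, so such a fit cannot separate it from GH. No conclusion is drawn from the empty class. Without single arrays it held 11 genes without WT with GH replicate 3 and 11, 11 and 9 without KO with GH replicate 1, 2 or 3.

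Slc25a25, a mitochondrial carrier of ATP-Mg and phosphate, had signals of 1684, 1523 and 1493 in WT, 5871, 5246 and 5472 in WT with GH, 3156, 3215 and 2583 in KO and 1940.1, 1704 and 1963 in KO with GH. WT with GH was above and WT below all others, and KO lay above KO with GH, so the order of the genotypes turned over: KO minus WT was 0.91 without GH and -1.55 with GH on the log2 scale. The difference was -2.47 ± 0.14 (adjusted p = 9.07e-08, limma), the second smallest adjusted p of all genes after Egr1.

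Sox4, a transcription factor of progenitor cells, did the reverse, with signals of 639, 699 and 649 in WT, 442, 395 and 411 in WT with GH, 687, 616 and 648 in KO and 1264, 1314 and 1281 in KO with GH. The groups without GH overlapped, WT with GH lay below them and KO with GH above them. The difference was 1.599 ± 0.13 (adjusted p = 6.91e-06, limma), although the other 7 probe sets of the gene ranged from -1.17 to 1.47.

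Myod1, the factor that commits cells to muscle, had signals of 3089, 1665 and 1612 in WT, 1110.0, 1034 and 1149 in WT with GH, 1599, 1617 and 1515 in KO and 2330.2, 2242 and 2326 in KO with GH. WT with GH lay below every other array, and KO with GH lay above all but WT replicate 1, for a difference of 1.41 ± 0.25 (adjusted p = 0.00961, limma). Tmem267 (1.54 ± 0.15), Macir (1.35 ± 0.24), the repressor Tgif1 (1.26 ± 0.22) and the pentraxin Ptx3 (1.12 ± 0.17) also fell in WT and rose in KO. Macir missed the threshold when probe sets named _x_at or _s_at were left out (adjusted p = 0.544, limma). Sh3rf2 differed by -1.12 ± 0.15 in the direction of Slc25a25. For Sox4, Macir, Tgif1, Ptx3, Klf11, Septin9, Cavin1 and Plekhb1 the arrays with GH of one genotype lay above and those of the other below all remaining arrays. The other 10 genes of the class ran from -1.06 (Fst, follistatin) to 0.88 (Septin9), and Cd24a and Psmc5, a proteasome subunit, were the 2 smallest positive ones at 0.61 and 0.50.

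**Figure D3:**
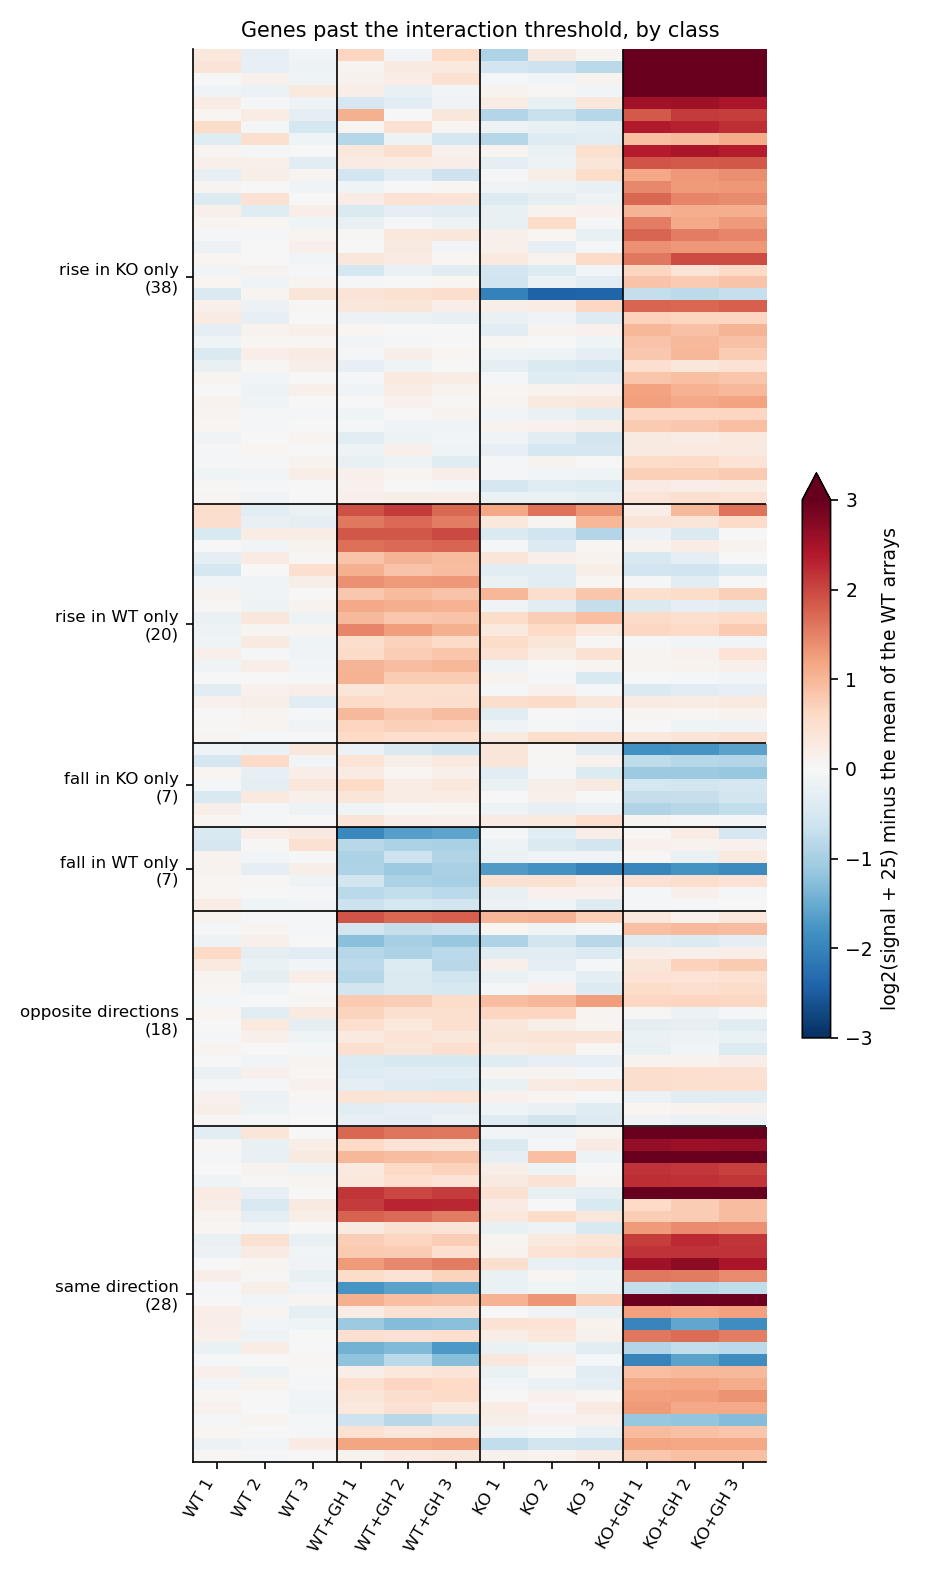
log2(signal + 25) of the 118 members on the 12 arrays, minus the mean of the 3 WT arrays without GH, by class from top to bottom. The block of 38 genes that rose in KO alone is highest on the 3 arrays of KO with GH in 37 of 38 genes, Socs2 being low in both KO groups, and the 20 that rose in WT alone are high on the 3 arrays of WT with GH.

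Of the 1004 genes that fell in KO with no call in WT, 7 were members, and of the 542 that fell in WT with no call in KO, also 7. With array weights these classes held 32 and 16. With an unadjusted p of at least 0.05 required in the other genotype (limma) they held 5 and 6. With median centring 2 and 7 of these members kept both the difference and the class. The 7 that fell in KO were Rarres1, Mss51, Fbxo32, Nr4a1, Hopx, Rasgrp3 and Srpk3, and for all but Srpk3 KO with GH lay below the other 9 arrays. Fbxo32, the muscle ubiquitin ligase atrogin-1, had signals of 5558, 4437 and 6058 in WT, 6328, 5510.3 and 5880.1 in WT with GH, 4234, 5134 and 4012 in KO and 2499.9, 2479 and 2408 in KO with GH. The arrays of KO with GH were the lowest, and WT overlapped both other groups, with a difference of -0.99 ± 0.16 (adjusted p = 0.00445, limma). It was the only one of the 7 that stayed past the threshold without any 1 array.

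Nr4a1, an orphan nuclear receptor, had signals of 8202, 6999 and 10836 in WT, 12912, 9986 and 10641 in WT with GH, 7390.3, 9668 and 10304 in KO and 5943, 5784 and 6015 in KO with GH, lowest in KO with GH. Its difference of -0.99 ± 0.21 (adjusted p = 0.0379, limma) was kept only without KO replicate 1, WT replicate 3 or WT with GH replicate 2. Rarres1 (-1.35 ± 0.28), the mitochondrial muscle protein gene Mss51 (-1.29 ± 0.27), Hopx (-0.99 ± 0.21), the Ras exchange factor Rasgrp3 (-0.61 ± 0.13) and the muscle kinase Srpk3 (-0.58 ± 0.12) each lost the call without 9 or 10 of the 12 arrays. The arrays they could spare were KO replicate 3, WT replicate 3 or WT with GH replicate 3 for Rarres1, WT replicate 1 or 2 for Mss51, any WT replicate for Hopx, WT replicate 1 or WT with GH replicate 1 for Rasgrp3, and KO replicate 1, WT replicate 1 or WT with GH replicate 3 for Srpk3. The class held 16 genes without WT replicate 1. It held 3 without WT with GH replicate 1 or 2 or KO replicate 2, and 1, 2 and 2 without KO with GH replicate 1, 2 or 3.

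The 7 members that fell in WT and had no call in KO were Gm17753, Fbp2, Arhgef15, Npnt, Cxxc5, Efna1 and Pgm2l1, and for all but Npnt WT with GH lay below the other 9 arrays. Fbp2, the muscle fructose-1,6-bisphosphatase, had signals of 1187, 1737 and 2333 in WT, 941, 862 and 853 in WT with GH, 1522, 1246 and 1152 in KO and 1838, 1821 and 1845 in KO with GH and a difference of 1.41 ± 0.25 (adjusted p = 0.00924, limma). GH lowered it in WT, and KO with GH was above KO in each array. Cxxc5, a CXXC zinc finger protein, had signals of 1436, 1427 and 1288 in WT, 931, 704 and 683 in WT with GH, 1911, 1905 and 1651 in KO and 1895, 2011 and 1874 in KO with GH; WT with GH stood below the rest and GH left the KO arrays overlapping (0.91 ± 0.16, adjusted p = 0.00733, limma).

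Npnt, the matrix protein nephronectin, had signals of 1576, 1223 and 1662 in WT, 768, 684 and 739.8 in WT with GH, 434, 399 and 342 in KO and 364, 406 and 377 in KO with GH. Here GH lowered WT towards the KO level, at which the arrays with and without GH overlapped, for a difference of 0.96 ± 0.18 (adjusted p = 0.0116, limma). Fbp2, Cxxc5 and Npnt kept their call without any 1 array. Arhgef15 (0.998 ± 0.19) lost it without replicate 1 or 3 of either group with GH. Pgm2l1 (0.76 ± 0.15) lost it without WT with GH replicate 1 or 3 or any KO with GH replicate. Gm17753 (1.72 ± 0.38) and the ephrin Efna1 (0.80 ± 0.17) lost it without 9 and 10 arrays; the first kept it without KO replicate 3, KO with GH replicate 3 or WT replicate 1, and the second without KO replicate 2 or 3. The class held 4 genes without WT with GH replicate 1 or 3 or KO with GH replicate 1, and 11 without KO replicate 1 or 2.

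The remaining 28 members moved the same way in both genotypes, 24 of them further in KO (21 rises and 3 falls) and 4 further in WT (2 rises and 2 falls). Hbegf, the heparin-binding ligand of the EGF receptor, had signals of 526, 873 and 676 in WT, 2312, 2103 and 2083 in WT with GH, 640.4, 631 and 722 in KO and 10042, 10221 and 9732 in KO with GH. All arrays with GH were above those without, and KO with GH was above WT with GH, with rises of 3.11-fold in WT and 14.6-fold in KO. The difference was 2.23 ± 0.19 (adjusted p = 8.88e-06, limma).

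The next largest were Srxn1, which repairs oxidised peroxiredoxins, at 2.21 ± 0.20, the growth arrest gene Btg2 at 2.13 ± 0.33, Sertad1 at 1.57 ± 0.17 and Phlda1 at 1.51 ± 0.15. Ankrd1, a stretch-responsive ankyrin repeat protein of the sarcomere, had signals of 403, 278 and 336 in WT, 1576, 1429 and 1516 in WT with GH, 473, 286 and 276 in KO and 4053, 3988 and 4042 in KO with GH, with the same order of groups as Hbegf (1.41 ± 0.23, adjusted p = 0.00576, limma). In the other direction stood Slc7a8, an amino acid transporter, at -1.38 ± 0.28, and the Mediator subunit Med26 at -1.27 ± 0.18, which both rose more in WT. Of these 8 all but Slc7a8 kept their call without any 1 array; Slc7a8 kept it only without KO replicate 3, KO with GH replicate 3 or any WT replicate, with an adjusted p of up to 0.0935 otherwise (limma). The class held 18 genes without WT with GH replicate 1 or 3, and 17 and 18 without KO with GH replicate 1 or 2.

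For 99 of the 118 members KO and WT differed past the threshold with GH and not without it, for 8 without GH and not with it, for 6 in both and for 5 in neither. The 8 were Tmpo, Lrtm1, Atp2a2, Dnaja4, St8sia5, Sh3rf2, Psmc5 and Noct. The 6 were Egr1, Socs2, Npnt, Slc25a25, Tmem267 and Junb. These comparisons share arrays with the difference that chose the members, so the counts describe on which side the gap lay and support nothing further.

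The pathways around the GH receptor were then read as lists, of which 21 were used, each with its count of members and its median difference beside the median of -0.01 over all genes. For every list below, the shares over all genes tested were 0.933% past the threshold and 10.4% with an unadjusted p under 0.05 (limma). With GH, 7.33% of all genes tested rose and 11.8% fell in WT, and 8.93% rose and 15.4% fell in KO. Of 17 STAT5 target genes, Socs2 alone passed, in the positive direction, with a list median of 0.27 and 14 of 17 above 0. GH raised 2 and lowered 4 of them in WT, and raised 5 and lowered 3 in KO. In limma 7 of the 17 (41.2%) had an unadjusted p under 0.05, against 10.4% of all genes tested. The lists were chosen with earlier results of these data known, so such shares are a description. Cish, another feedback inhibitor of the receptor, had signals of 2274, 4019 and 8725 in WT, 9274, 11023 and 10684 in WT with GH, 799, 295 and 554 in KO and 3182, 3587 and 3474 in KO with GH and was named after its values were seen. It rose with GH in KO from a level far below WT, and its difference of 1.43 ± 0.65 missed the threshold (adjusted p = 0.496, limma); in WT its 3 arrays without GH ranged from 2274 to 8725. Of 24 genes of GH and IGF signalling none passed in limma and 3 had an unadjusted p under 0.05, as did 10.4% of all genes tested, the smallest p being that of the phosphatase Ptpn1 at 0.52 ± 0.13 (adjusted p = 0.081, limma) and of Stat5b.

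Of 20 STAT3 and acute phase genes, Saa3 alone passed. An unadjusted p under 0.05 (limma) was reached by 4 of the 20. GH raised 14 of the 20 in WT and 15 in KO, against 7.33% and 8.93% of all genes tested, and the median GH effects of the list were 0.88 and 1.03. It lowered 1 in each. Most of the list thus rose in both genotypes, with a median difference of 0.07.

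Of 25 immediate early genes, Egr1, Klf6, Btg2 and Junb passed in the positive direction and Nr4a1 in the negative. In limma 13 of the 25 (52%) had an unadjusted p under 0.05, against 10.4% of all genes tested. GH raised 7 and lowered 2 in WT and raised 14 and lowered 2 in KO, with a median difference of 0.38. Junb, an AP-1 subunit, had signals of 329.5, 304 and 346 in WT, 705, 634 and 606 in WT with GH, 703, 859 and 548 in KO and 2656, 2704 and 2686 in KO with GH. It was higher in KO than in WT with and without GH, and its difference of 0.98 ± 0.18 (adjusted p = 0.0141, limma) became 0.0526 without KO with GH replicate 2.

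Of 16 ERK feedback inhibitors, Dusp5, Nab2 and Dusp2 passed, all positive, and the list median was 0.37. Dusp5 was among the genes tested only through its arrays of KO with GH, so its place in this count supports nothing. GH raised 4 of the 16 in WT and 7 in KO. Of 7 EGF family genes Hbegf alone passed, against a list median of -0.17. Of 6 RGK and Ras GTPases Rrad alone passed, against a median of 0.13. In these last 2 lists the gene that passed stood far from the rest. Among the 16 ERK feedback inhibitors 7 had an unadjusted p under 0.05 (limma), Dusp5 being 1 of them. So had 1 of the 7 EGF family genes and 2 of the 6 GTPases.

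**Figure D4:**
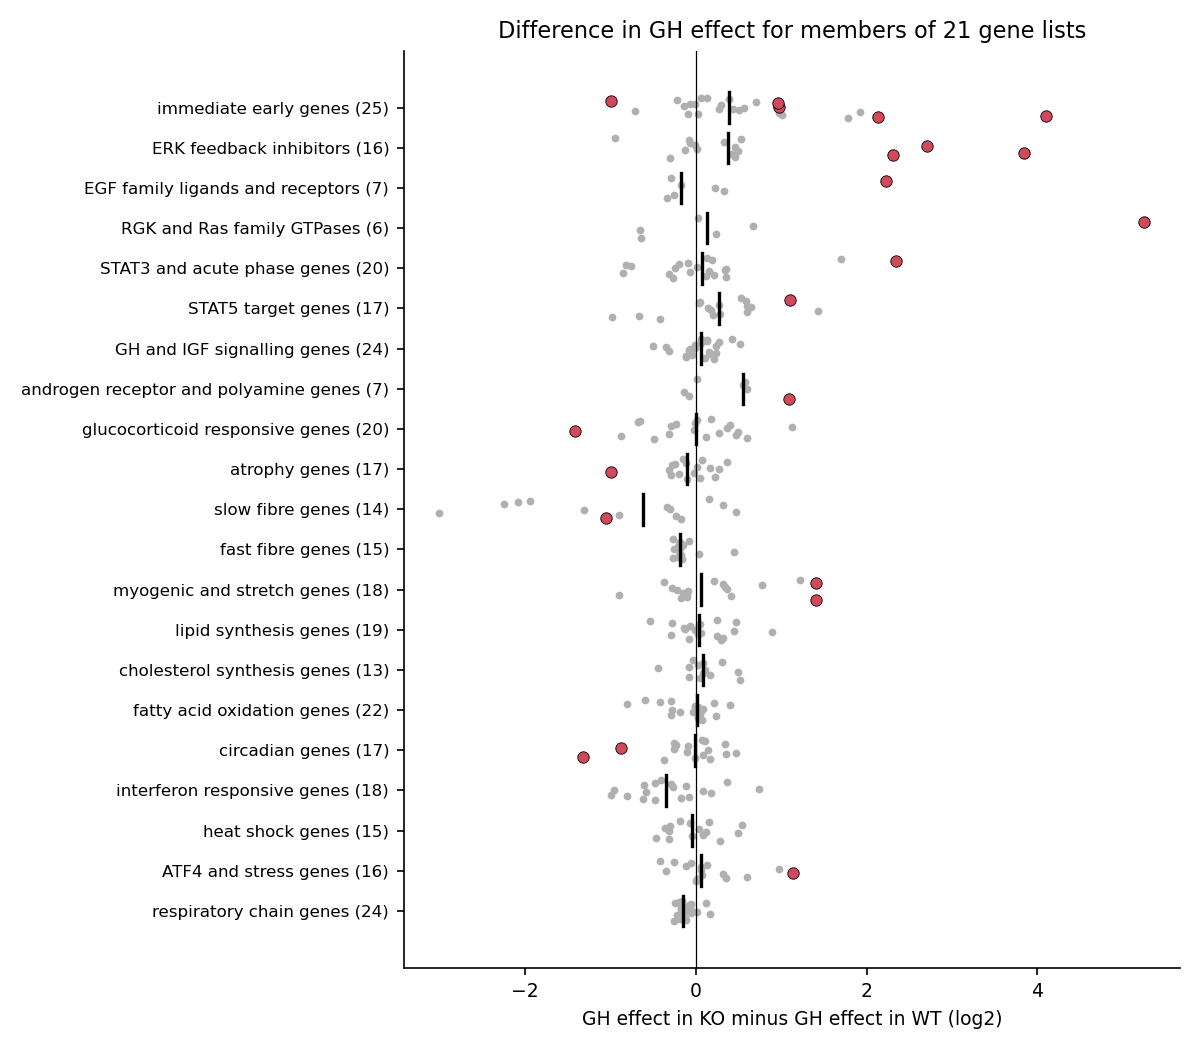
Difference in the GH effect (KO minus WT, log2) of each tested gene of the 21 pathway lists, with 1 line of points per list; red points are past the threshold and the short black line is the median of the list. Rrad at 5.25, Egr1 at 4.10 and Dusp5 at 3.84 lie far to the right of their lists, and the slow fibre list has the lowest median at -0.62.

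Glucocorticoid responsive genes rose with GH in both genotypes, 18 of 20 in WT and 15 in KO, where 1 fell. Over all genes tested 7.33% rose in WT and 8.93% in KO. Klf15 was the only one whose rise differed past the threshold, and the list median was 0.00. Of 17 atrophy genes Fbxo32 alone passed, with a list median of -0.10. Of 7 androgen receptor and polyamine genes Azin1 alone passed, with a median of 0.55. In limma 7 of the 20 glucocorticoid genes, 3 of the 17 atrophy genes and 4 of these 7 had an unadjusted p under 0.05. So had 4 of 16 ATF4 and stress genes. Of 16 ATF4 and stress genes Gadd45a alone passed at 1.14 ± 0.23 (adjusted p = 0.0256, limma), rising in both genotypes, and it kept the call only without KO replicate 1, KO with GH replicate 3, WT replicate 3 or WT with GH replicate 3.

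The slow fibre list had the lowest median, -0.62 over 14 genes. GH raised 9 of the 14 in WT and 2 in KO, and lowered 1 in KO. The mean of these genes on the log2 scale was 9.55, 10.8 and 9.99 on the WT arrays without GH. It was 11.14 to 11.17 in WT with GH, 11.18 to 11.36 in KO and 11.40 to 11.46 in KO with GH. WT without GH was thus the group that stood apart, low and scattered. Whether those WT samples held fewer slow fibres was not tested. An unadjusted p under 0.05 (limma) was reached by 6 of the 14. Atp2a2 alone passed, with signals of 3777, 5496 and 3864 in WT, 8435, 7610.5 and 7794 in WT with GH, 6344, 7244 and 8040.4 in KO and 6461, 6091 and 6570.5 in KO with GH. WT without GH lay below all other arrays, and WT with GH lay above KO with GH. KO minus WT passed the threshold without GH (0.73, adjusted p = 0.00586, limma) and not with it (-0.32, adjusted p = 0.2). The difference was -1.05 ± 0.17 (adjusted p = 0.00629, limma), and the other 5 probe sets of the gene ranged from -1.13 to 0.59.

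Myh7, the slow myosin heavy chain, had signals of 124, 1133 and 192 in WT, 2393, 3040.2 and 2541 in WT with GH, 3575, 4337 and 4231 in KO and 3914, 4082 and 4023 in KO with GH and was named after its values were seen. WT replicate 2 was well above the other 2 WT arrays, and the difference of -3.01 ± 0.88 missed the threshold (adjusted p = 0.249, limma); without that array it was -3.90 with an adjusted p of 8.5e-08, and without any other single array it missed. With the mean of the slow fibre genes as a covariate 58 of the 118 members kept their call. These included 26 of the 38 that rose in KO alone, 7 of the 20 that rose in WT alone and 8 of the 18 that moved in opposite directions. Of 15 fast fibre genes none passed in limma and 0 had an unadjusted p under 0.05: GH raised or lowered 0 of them in WT and lowered 11 and raised 1 in KO, yet the median difference was -0.19 and the smallest p belonged to Myh2 at 0.45 ± 0.21 and Myl1 at -0.26 ± 0.17.

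Of 18 myogenic and stretch genes Ankrd1 and Myod1 passed, both positive. Of 17 circadian genes Nr1d1 and Ciart passed, both negative. Among the myogenic and stretch genes 4 of 18 had an unadjusted p under 0.05 (limma), and among the circadian genes 3 of 17. Nr1d1, the clock repressor REV-ERB alpha, had signals of 2248, 2361 and 2412 in WT, 991, 1319.5 and 947 in WT with GH, 2973, 2622 and 2295 in KO and 562, 756 and 625 in KO with GH and fell with GH in both genotypes, further in KO (-0.88 ± 0.19, adjusted p = 0.0379, limma), a call kept only without KO replicate 3, KO with GH replicate 2 or WT with GH replicate 3.

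None passed among 19 lipid synthesis genes, 13 cholesterol synthesis genes, 22 fatty acid oxidation genes, 24 respiratory chain genes, 18 interferon responsive genes or 15 heat shock genes in limma. An unadjusted p under 0.05 was reached by 2, 1, 1, 0, 4 and 1 of them in that order. The genes with the smallest p in the lipid list were Srebf1 at -0.54 ± 0.13 and Scd2 at 0.48 ± 0.18, and in fatty acid oxidation Ppara at -0.81 ± 0.24 and Ucp3 at -0.60 ± 0.31. In the interferon list they were Ifit1 at -0.99 ± 0.29 and Irf8 at 0.74 ± 0.27, and the list median was -0.35. In the cholesterol list they were Idi1 at 0.49 ± 0.23 and Mvd at -0.44 ± 0.32, in the heat shock list Hspb8 at 0.54 ± 0.13 and Hspb1 at -0.36 ± 0.18, and in the respiratory chain Cyc1 at -0.17 ± 0.11 and Sdhb at -0.25 ± 0.15. GH lowered 13 of the 19 lipid synthesis genes in WT and 11 in KO, against 11.8% and 15.4% of all genes tested. It lowered 3 of the 24 respiratory chain genes in WT and 10 in KO, with a median difference of -0.15.

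Markers of other cell types were read the same way in 12 lists besides skeletal muscle. Cldn5, a tight junction protein of endothelium, was the only member among them, at -0.97 ± 0.19, 1 of 10 endothelial markers. The summed endothelial signal was 8898 to 9675 in WT with GH and 8861 to 9664 in KO with GH, so the sums overlapped. The summed signal of the 12 neutrophil markers on the array was 817 to 1090 in WT, 3371 to 3414 in WT with GH, 625 to 861 in KO and 1879 to 2142 in KO with GH. With GH the sum was thus lower in KO, though only 8 of these markers passed the filter on low values. The 12 macrophage markers summed to 11880 to 12217 in WT with GH and 11203 to 11621 in KO with GH. Schwann cell markers summed to 6488 to 6747 and 7345 to 7538 in that order. For red cell markers, of low signal, the sums were 534 to 591 and 650 to 745, and for hepatocyte markers 535 to 546 and 295 to 359. In the extracellular matrix, adipocyte, brown adipocyte, lymphocyte, smooth muscle and keratinocyte lists the sums of these groups overlapped. The part of these cells in the members' differences was not tested.

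Of the 118 members, 65 had other probe sets bright enough to be read, 117 in all. In 108 of these the difference had the same sign as in the probe set used, and 73 of them also had an unadjusted p under the threshold in that direction. These probe sets read the same samples on the same arrays, so they are not independent support. The same shares over all genes tested were not computed. Dimmer probe sets were not counted here. With the mean of all probe sets of a gene as its value, 69 of the 118 members kept their call. By class these were 22 of the 38 that rose in KO alone, 13 of the 20 that rose in WT alone and 11 of the 18 that moved in opposite directions.

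**Figure D5:**
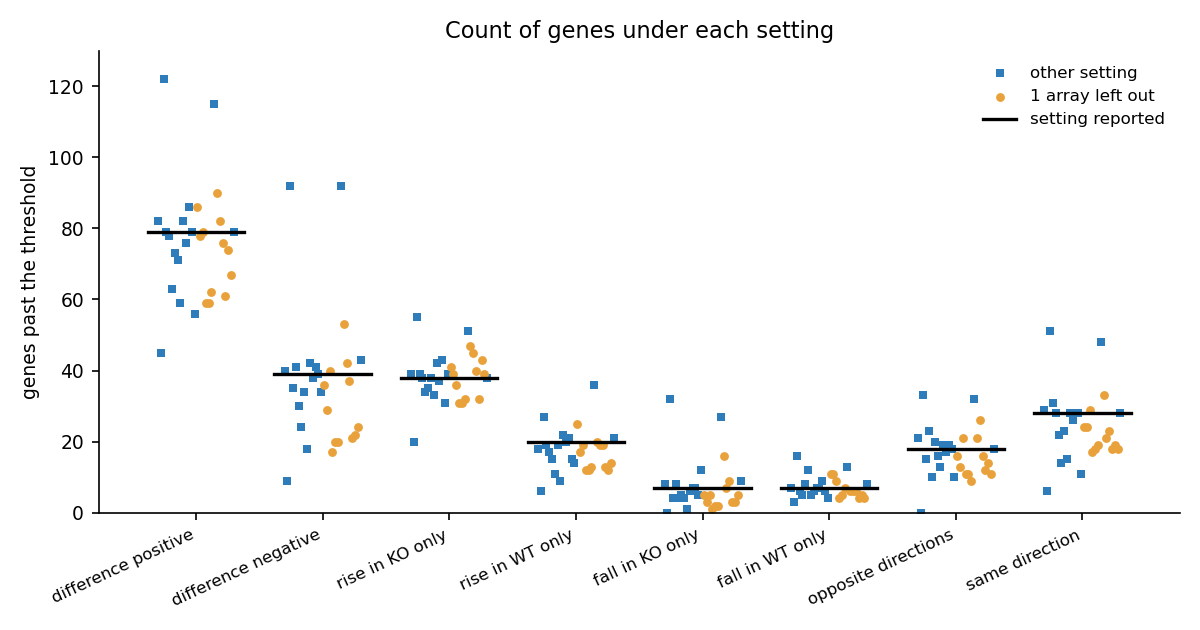
Number of genes past the threshold (y axis) with a positive or a negative difference and in each class, as reported (black line, 79 positive and 39 negative) and under the alternative settings; orange circles leave out 1 array and blue squares are other settings. The plotted counts range from 45 to 122 for positive and from 9 to 92 for negative differences; the requirement of a difference of at least 1 on the log2 scale (43 and 17) is not plotted.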

How the data were processed

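Biotin-labelled total RNA was hybridized to 12 Affymetrix 1-colour arrays. The authors deposited 1 linear intensity, the MAS5 signal, per probe set and array for 45101 probe sets, per the submitters' processing notes; its version and settings are not given in the sources used here. Each deposited array has a trimmed mean near 500. No detection calls or scanner files were used, and the number of arrays limits the precision.

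Signals were taken as log2(signal + 25). A gene's value was that of its brightest probe set by mean over all arrays, and 12654 genes with a mean above the 40th percentile (6.253) were kept. limma 3.58.1 in R 4.3.3 fitted 1 mean per group (8 residual degrees of freedom; eBayes with trend and robust), and p-values are 2-sided with Benjamini-Hochberg adjustment over all genes kept. "Rose" and "fell" mean past the threshold of 0.05; a value after ± is a standard error. The fit was tested on simulated data. Replicate numbers follow accession order and pair nothing. Promoter windows came from RefSeq, and that of Rrad, Egr1 and Socs2 was not used here.

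Named genes were Stat5a, Stat5b, the 8 largest differences in each class, and up to 5 members of each list past the threshold or the 2 with the smallest p where none passed. Genes named besides these, singly or for overlap, position near the threshold or side of the gap, were chosen after their values were seen. The members and lists were chosen with earlier results of these data known. Settings tried as alternatives were 12 that leave out 1 array each and 17 others, 1 of them added after seeing the data.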

Additional observations from a re-analysis of the deposited data

Results flagged for a closer look

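Each of the 118 genes below is listed because the test of the difference itself, the GH effect in KO minus the GH effect in WT, passed the threshold (limma, Benjamini-Hochberg adjusted p, 3 arrays in each of 4 groups). The value after each name is that difference on the log2 scale. "Alone" means no call in the other genotype, not an absence of any change there. Groups of 3 arrays are too small for a test of single arrays that stand apart, so none was made.

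Genes that rose with GH in KO alone were Rrad (5.25), Egr1 (4.10), Dusp5 (3.84), Sgms2 (3.18), Nab2 (2.71), Saa3 (2.34), Dusp2 (2.31), 2900079G21Rik (2.02), Sh3bp2 (1.95), Mid1ip1 (1.67), Brdt (1.56), Ankrd10 (1.53), Lonrf3 (1.46), Thbd (1.40), Bcl2l11 (1.36), Tubb6 (1.35), Gcc1 (1.31), Gm13889 (1.29), Osgin1 (1.24), Slc38a2 (1.195), Socs2 (1.10), Adamts1 (1.10), Azin1 (1.09), Cgref1 (0.999), Sap30 (0.98), Myh9 (0.97), Lrrfip2 (0.97), Klf6 (0.96), Gch1 (0.91), Frmd6 (0.89), Prss23 (0.86), Ehd4 (0.79), Mlf1 (0.77), Abi2 (0.75), Met (0.74), Ahnak (0.68), Tmpo (0.63) and Vmp1 (0.49).

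Genes that rose in WT alone were Krt88 (-2.33), Apold1 (-1.64), Aldh9a1 (-1.47), Klf15 (-1.42), B330016D10Rik (-1.39), Ciart (-1.33), Frat2 (-1.29), Lrtm1 (-1.08), Gramd1a (-1.05), Atp2a2 (-1.05), Adamts9 (-0.996), Cldn5 (-0.97), Garem1 (-0.89), Pink1 (-0.86), Pim3 (-0.78), Cdc42ep3 (-0.77), Dnaja4 (-0.75), Gab1 (-0.70), Sugp1 (-0.66) and St8sia5 (-0.57). Those that fell in KO alone were Rarres1 (-1.35), Mss51 (-1.29), Fbxo32 (-0.99), Nr4a1 (-0.99), Hopx (-0.99), Rasgrp3 (-0.61) and Srpk3 (-0.58). Those that fell in WT alone were Gm17753 (1.72), Fbp2 (1.41), Arhgef15 (0.998), Npnt (0.96), Cxxc5 (0.91), Efna1 (0.80) and Pgm2l1 (0.76).

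Genes that fell in WT and rose in KO were Sox4 (1.599), Tmem267 (1.54), Myod1 (1.41), Macir (1.35), Tgif1 (1.26), Ptx3 (1.12), Septin9 (0.88), Cavin1 (0.82), Plekhb1 (0.73), Cd24a (0.61) and Psmc5 (0.50). Genes that rose in WT and fell in KO were Slc25a25 (-2.47), Sh3rf2 (-1.12), Fst (-1.06), Hes1 (-0.93), Arhgap20 (-0.91), Klf11 (-0.90) and Tbc1d8 (-0.72).

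Rises in both genotypes were larger in KO for Hbegf (2.23), Srxn1 (2.21), Btg2 (2.13), Sertad1 (1.57), Phlda1 (1.51), Ankrd1 (1.41), Jmjd1c (1.26), Tgfb2 (1.199), Klf5 (1.16), Gadd45a (1.14), Slc2a1 (1.06), Junb (0.98), Arrdc3 (0.92), Cnksr1 (0.90), Txnrd1 (0.81), Smad1 (0.76), Rnf19a (0.73), Ahdc1 (0.66), Vldlr (0.62), Noct (0.60) and Cavin4 (0.51), and larger in WT for Slc7a8 (-1.38) and Med26 (-1.27). Falls in both were larger in KO for Tmem45b (-0.91), Nr1d1 (-0.88) and Fbxw7 (-0.66), and larger in WT for Aplnr (1.04) and Myct1 (0.88).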

How the results depend on the processing

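Of the 29 alternative settings 27 refit the model; no member's difference changed sign in any of these, and 31 of the 118 passed the threshold in each of them that tested the gene. The other 2 only narrow the reported calls. No paired analysis was possible because the labels give no shared replicate numbers. With 3 arrays per group a median standard error of 0.203 limits what can be called. The cause of each moved count was not tested. Leaving out 1 array gave 59 to 90 positive and 17 to 53 negative genes. By class it gave 31 to 47 (rise in KO), 12 to 25 (rise in WT), 1 to 16 (fall in KO), 4 to 11 (fall in WT), 9 to 26 (opposite), 17 to 33 (same direction) and 0 to 0 (neither).

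Array weights gave 122 positive and 92 negative genes, with 32 falls in KO alone, 16 falls in WT alone, 33 opposite and 51 same direction. The actin ratio as a covariate gave 45 and 9, with 20 rises in KO alone, 6 in WT alone, 0 falls in KO alone, 3 in WT alone, 0 opposite, 6 same direction and 19 with no call in either genotype. A difference of at least 1 on the log2 scale gave 43 and 17, with 23, 10, 2, 2, 9 and 14 in the classes in that order. Median centring on all probe sets gave 24 negative genes, 11 rises in WT alone, 12 falls in WT alone and 14 same direction. Without trend and robust fitting there were 18 negative genes, 9 rises in WT alone, 1 fall in KO alone and 15 same direction. Without both WT replicate 1 and KO replicate 3 there were 92 negative genes, 36 rises in WT alone, 27 falls in KO alone, 13 falls in WT alone, 32 opposite and 48 same direction. Falls in KO alone numbered 4 with no filter, 4 with the mean of all probe sets (which also gave 10 opposite) and 4 with centring on the genes kept, a setting chosen after seeing the data. The slow fibre mean as a covariate gave 12 falls in KO alone, 4 falls in WT alone, 10 opposite and 11 same direction.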

Other observations

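Genes with large differences that missed the threshold are given here as values, chosen after they were seen. Gdpd3, a phospholipase of the glycerophosphodiester family, had signals of 109.9, 78.5 and 97.5 in WT, 650.5, 871 and 863 in WT with GH, 40.5, 32.0 and 2032 in KO and 104, 17.4 and 50.8 in KO with GH. KO replicate 3 was far above the other KO arrays, and the difference was -4.17 ± 1.68 (adjusted p = 0.436, limma). Without that array it was -2.48 ± 0.47 with an adjusted p of 0.0184, and without any 1 of the other 11 arrays the adjusted p was 0.311 to 0.652.

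Socs3, a feedback inhibitor of cytokine receptors that STAT3 induces, had signals of 361, 295 and 633 in WT, 1531, 1990.5 and 2335 in WT with GH, 824, 361 and 699 in KO and 9369.6, 8871 and 8905 in KO with GH. All arrays with GH were above those without, and the log2 GH effect was 2.17 in WT against 3.87 in KO. The difference was 1.70 ± 0.43 (adjusted p = 0.13, limma), and the adjusted p was 0.0719 to 0.291 when 1 array was left out.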
